A study of Mus musculus with 33 samples.

Results

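The miR-106b-25 cluster is a group of 3 microRNAs, miR-106b, miR-93 and miR-25, that are cut from 1 primary transcript within the Mcm7 gene. The 3 members were taken by the names mmu-miR-106b, mmu-miR-93 and mmu-miR-25, without a star, among the 611 mouse miRNAs on the array, with no threshold on a measured value. All 3 were above background on all 33 arrays and so were among the 171 mouse miRNAs tested. No member passed the test against vehicle on any of the 3 days after carbon black. The largest changes were 0.19 ± 0.10 (log2 ± SE) for miR-93 on day 3 and -0.21 ± 0.12 for miR-25 on day 28.

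Lung tissue came from female C57BL/6 mice that received a dose of 0.162 mg Printex 90, a carbon black of nanosized particles, or vehicle alone, and lungs were taken 1, 3 or 28 days afterwards. This vehicle, 0.9% NaCl in MilliQ water with 10% by volume of acellular bronchoalveolar lavage (BAL), was the treatment of every control mouse. It makes the controls vehicle-treated lungs, not untreated ones. There were 6 control mice on each day and 6, 4 and 5 exposed mice on days 1, 3 and 28, with 1 array per mouse. The labels used here give no age. RNA came from whole tissue, so fewer cells of a type and less RNA per cell cannot be told apart.

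MicroRNAs are short RNAs that load into an Argonaute protein and pair with messenger RNAs, mainly through the bases near their 5′ end that form the seed, which lowers the stability and translation of those messages. The miR-106b-25 cluster is a paralog of the miR-17-92 cluster, best known as an oncogenic miRNA cluster. Its host gene Mcm7 encodes a subunit of the replicative helicase. miR-106b and miR-93 share the miR-17 seed and are known to repress the cell cycle inhibitor p21 (Cdkn1a) and E2f1, and miR-25 has the seed of miR-92a and is known to repress the apoptosis gene Bim (Bcl2l11). In lung, the related miR-17-92 cluster is known for its role in the growth of epithelial progenitors during development.

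The mature sequences below, from RefSeq on GRCm38.p6, show which members can share targets; the seed, bases 2 to 8, is in capitals. miR-106b and miR-93 had the same seed and matched at 16 aligned bases, while miR-25 had another.
mmu-miR-106b-5p: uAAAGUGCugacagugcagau
mmu-miR-93-5p: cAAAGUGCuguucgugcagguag
mmu-miR-25-3p: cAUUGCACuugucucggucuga
They lie on the minus strand at chr5:138165787-138165807, chr5:138165574-138165596 and chr5:138165332-138165353. The arms were assigned by the older naming, in which the name without a star is the main mature product of the hairpin.

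The hairpins from which they are cut show where each arm sits, with both mature arms in capitals. miR-106b and miR-93 come from the 5′ arm and miR-25 from the 3′ arm.
Mir106b: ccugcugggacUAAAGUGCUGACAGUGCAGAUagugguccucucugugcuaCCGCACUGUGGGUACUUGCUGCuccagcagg
Mir93: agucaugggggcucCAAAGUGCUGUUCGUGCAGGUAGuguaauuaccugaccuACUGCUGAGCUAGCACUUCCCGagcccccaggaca
Mir25: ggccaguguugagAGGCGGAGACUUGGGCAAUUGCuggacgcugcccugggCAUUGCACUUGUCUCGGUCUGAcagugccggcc
The hairpins lie at chr5:138165737-138165818, chr5:138165523-138165610 and chr5:138165321-138165404. They span 498 bases inside Mcm7, which RefSeq places at chr5:138164583-138172111, also on the minus strand.

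Relatives on the array whose signal could be measured are shown because their probes bind closely similar sequences.
mmu-miR-20a-5p: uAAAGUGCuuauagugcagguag
mmu-miR-20b-5p: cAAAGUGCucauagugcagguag
mmu-miR-92a-3p: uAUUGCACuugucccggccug
miR-93 matched miR-20b at 20 and miR-20a at 19 of its 23 bases, which is more than it shared with miR-106b. miR-106b matched miR-20a at 18 of its 21 bases, and miR-25 matched miR-92a at 18 of its 22. How far a probe also binds such a relative was not tested.

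The array carried 13715 spots, and the arrays differed in brightness: the 75th percentile of the processed signal lay between 187 and 1211, with a median of 634. Signals were scaled to a common 75th percentile, and levels below are log2 of the scaled signal, on a scale of their own for each probe, so that a level of one member is not set against that of another. The 33 arrays lay on 9 slides. On every slide the control mice came before the exposed mice in the numbering of the arrays, so order within a slide and exposure cannot be told apart. Effects of position on the slide were not separated from exposure either. Slide 1, the sole slide of scan day 1, stood apart in these miRNAs. It held 1 array each of the control and exposed groups of days 1 and 3. Exposure changes of those days are therefore also given without slide 1. All 5 epithelial miRNAs of the miR-200 family, the endothelial miR-126-3p, the smooth muscle miR-143 and the fibroblast miR-199a-3p were above background on 33 of 33 arrays. The other endothelial marker, miR-126-5p, was so on 23 arrays. The other smooth muscle marker, miR-145, was so on 1 and was not tested. The muscle miRNA miR-1 was so on 31, miR-133b on 16 and miR-133a on 10, and the liver miRNA miR-122 on 21.

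miR-106b varied little between groups. In control lungs its lowest, median and highest levels were 7.07, 7.42 and 8.04 on day 1, 7.28, 7.38 and 7.89 on day 3, and 7.14, 7.26 and 7.34 on day 28. In exposed lungs they were 7.20, 7.28 and 7.68 on day 1. The 4 exposed mice of day 3 had 7.56, 7.64, 7.33 and 7.30, and the 5 of day 28 had 7.38, 7.22, 7.38, 7.20 and 7.14. The highest mouse of control day 1, of exposed day 1 and of control day 3 was in each case the one on slide 1, and exposed and control groups overlapped on all days. Group means ± SD ran from 7.25 ± 0.08 in control day 28 (n = 6) to 7.47 ± 0.35 in control day 1 (n = 6), a distance of 0.23, and each pair of neighbours in that order differed by less than the SD of either.

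miR-93, which shares its seed with miR-106b, had the narrowest range of the members over the 33 arrays, 5.38 to 6.07. Its lowest, median and highest control levels were 5.54, 5.67 and 6.03 on day 1, 5.54, 5.71 and 5.84 on day 3, and 5.55, 5.72 and 5.86 on day 28. Those of exposed day 1 were 5.62, 5.76 and 5.86. The 4 exposed mice of day 3 had 5.64, 6.07, 5.92 and 5.95: 3 lay above all 6 control mice of that day, and the lowest was the one on slide 1. The 5 exposed mice of day 28 had 5.77, 5.59, 5.70, 5.38 and 5.72, within or below the range of their controls. Group means ran from 5.63 ± 0.16 (SD, n = 5) in exposed day 28 to 5.89 ± 0.18 (n = 4) in exposed day 3, a distance of 0.26. The other 4 means lay between 5.71 and 5.75.

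miR-25, with the other seed, had the widest range of group means. Control mice had lowest, median and highest levels of 6.31, 6.59 and 7.21 on day 1, 6.53, 6.63 and 6.94 on day 3, and 6.39, 6.62 and 6.64 on day 28. Exposed mice of day 1 had 6.56, 6.59 and 7.00. The 4 exposed mice of day 3 had 6.92, 6.87, 6.62 and 6.68, and the first of these lay on slide 1. The 5 exposed mice of day 28 had 6.51, 6.39, 6.30, 6.09 and 6.48. All 5 lay below the control median of that day, though the lowest control, at 6.39, lay among them. Group means ran from 6.36 ± 0.17 (SD, n = 5) in exposed day 28 to 6.77 ± 0.15 (n = 4) in exposed day 3, a distance of 0.41, and the lowest stood 0.21 below the next, control day 28 at 6.57 ± 0.10 (n = 6).

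**Figure D1:**
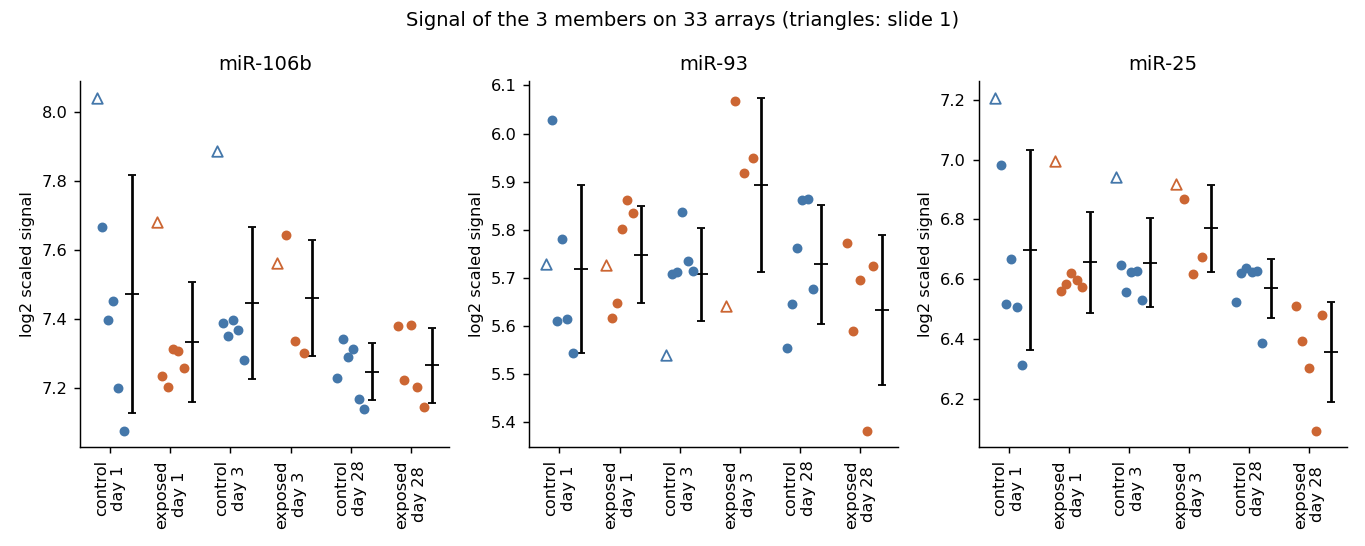
Log2 scaled signal of miR-106b, miR-93 and miR-25 (vertical axes, each on its own scale) in the 6 groups; points are mice, open triangles the 4 mice on slide 1, and bars the group mean and SD. The triangles top miR-106b in control days 1 and 3 and in exposed day 1, and the 5 mice of exposed day 28 sit low for miR-25, between 6.09 and 6.51.

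On day 1 after carbon black none of the 3 members passed the test, and 0% of the 171 tested miRNAs did at an adjusted p of 0.05. The changes, exposed minus control, were -0.14 ± 0.12 (log2 ± SE, limma adjusted p = 0.636) for miR-106b, 0.03 ± 0.09 (0.863) for miR-93 and -0.04 ± 0.11 (0.863) for miR-25. The 95% intervals allowed changes of -0.39 to 0.11 for miR-106b, -0.15 to 0.21 for miR-93 and -0.28 to 0.19 for miR-25, so a change of either sign was not excluded for any. Without slide 1 the values were -0.10, 0.04 and -0.01. The median change of all tested miRNAs was -0.09, and 15 of 171 had an unadjusted p at or under 0.05. The control arrays of day 1 were dimmer, with a median 75th percentile of 365 against 666 in exposed mice. Whether this bears on the changes was not tested. All 3 myeloid markers had positive changes on the same day, 0.82 for miR-223, 0.51 for miR-142-3p and 0.43 for miR-142-5p, and did not pass the test either (smallest adjusted p = 0.0990).

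On day 3 all 3 members had positive changes, and none passed the test. Of the 171 miRNAs 0% did, and 2 had an unadjusted p at or under 0.05. miR-93 had a difference of 0.19 ± 0.10 (limma adjusted p = 0.996), with a 95% interval of -0.01 to 0.39, which is a fold of 1.14 with bounds of 0.990 and 1.31. The differences of miR-25 and miR-106b were 0.11 ± 0.13 and 0.02 ± 0.14 (adjusted p = 0.996 for both). Without slide 1 the changes of miR-93, miR-25 and miR-106b were 0.24, 0.12 and 0.07. In all 4 pairs of an exposed and a control mouse of day 3 on the same slide miR-93 was higher in the exposed mouse, by 0.10 to 0.36 and by 0.23 on average. miR-25 was higher in 3 of those 4 pairs and miR-106b in 2.

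The erythroid markers had changes of the same sign as miR-93 on that day. miR-144, miR-451 and miR-486 had changes of 0.46, 0.42 and 0.56 (adjusted p = 0.996 for each), and all 3 were above background on 33 arrays. Their summed level ran from 12.01 to 12.88 (log2) in control day 3 and from 12.53 to 13.68 in exposed day 3. On day 28 all 3 were negative, at -0.25, -0.20 and -0.10, as was miR-93. On day 1, when miR-93 had 0.03, they were 0.17, -0.22 and -0.02. The positive sign of day 3 was not particular to erythroid markers, as the tested endothelial, smooth muscle and liver markers were all positive too. The tested lymphoid markers and the heart and skeletal muscle markers were all negative on that day. The myeloid, epithelial and fibroblast markers had changes of both signs. The part of any of these markers in the values of miR-93 was not tested.

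On day 28 miR-25 had a change of -0.21 ± 0.12 (limma adjusted p = 0.737), with a 95% interval of -0.46 to 0.03, a fold of 0.862 with bounds of 0.727 and 1.02. Values for miR-93 were -0.09 ± 0.09 (adjusted p = 0.928) and for miR-106b 0.02 ± 0.13 (adjusted p = 0.986), with intervals of -0.28 to 0.09 and of -0.24 to 0.28. As on the other days, 0% of the 171 miRNAs passed, while 13 had an unadjusted p at or under 0.05. In all 5 same-slide pairs of day 28 miR-25 was lower in the exposed mouse, with differences of -0.53 to -0.01 and -0.25 on average, whereas miR-93 was lower in 4 and miR-106b in 3 of the 5. The exposed arrays of that day were dimmer, with a median 75th percentile of 481 against 985 in their controls, and whether this bears on miR-25 was not tested. miR-25 correlated with log2 brightness at r = 0.110 over the 33 arrays and at 0.378 over the 29 without slide 1. Of the heart and skeletal muscle markers, all 3 had negative changes on day 28, of -1.55 to -1.23 (smallest adjusted p = 0.629). Of these, miR-133a and miR-133b were each above background on 4 of 6 control arrays and 0 of 5 exposed arrays of that day. Their changes therefore rest on signals near the floor. In exposed day 3, miR-133a was above background on 0 of 4 arrays and miR-133b on 2. These muscle markers had -1.39 to -1.31 on day 3, when miR-25 had 0.11, and 0.39 to 0.84 on day 1, when it had -0.04. Their summed log2 level on day 28 ran from 5.09 to 8.00 in controls and from 4.79 to 6.27 in exposed mice. On day 28 all 3 erythroid markers were negative too, at -0.25 to -0.10, and all 3 myeloid markers positive, at 0.12 to 0.35. The part of any of these markers in the value of miR-25 was not tested.

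**Figure D2:**
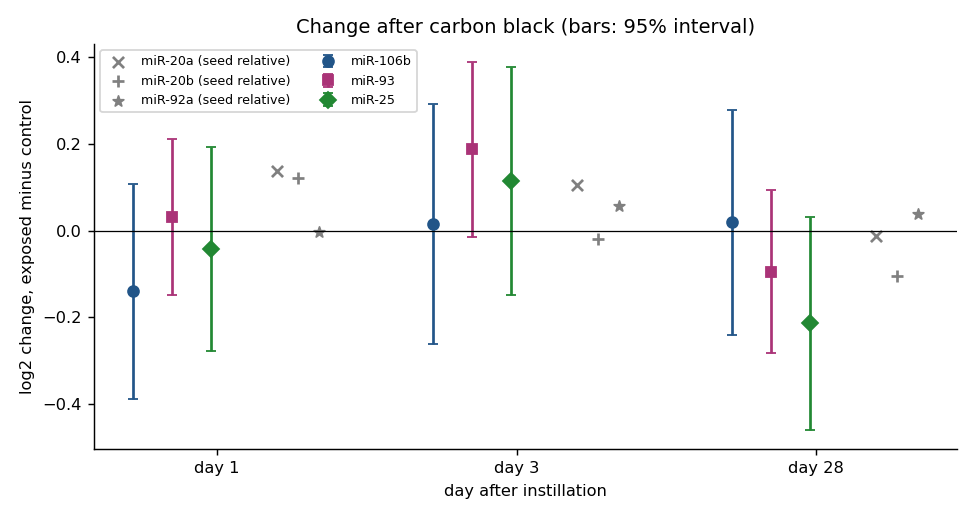
Change in log2 signal, exposed minus control (vertical axis), on days 1, 3 and 28 (horizontal axis, categories not to scale) for the 3 members with 95% intervals, and for 3 seed relatives as grey marks without intervals. All 9 intervals include 0; the largest positive change is that of miR-93 on day 3, 0.19, and the largest negative one that of miR-25 on day 28, -0.21.

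The exposure effect was not shown to differ between days: an F test over the differences of the 3 effects gave an adjusted p of 0.994 for each member in limma, and 0% of 171 miRNAs passed it. Among exposed mice, a second F test compared the 3 days directly. Its p for miR-25 was 0.00979, and the adjusted p of 0.186 missed the threshold, as it did for miR-93 (0.384) and miR-106b (0.782); 0% of 171 miRNAs passed. miR-25 was highest on day 3 and lowest on day 28 in exposed lungs. Exposed days 1 and 3 each held 1 array of slide 1, at 7.00 and 6.92 for miR-25, and exposed day 28 held none. Leaving out each array in turn gave adjusted p of 0.0672 to 0.466 for miR-25 in this F test.

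In vehicle lungs no member passed between days. From day 1 to day 3 the changes were -0.03 ± 0.12, -0.01 ± 0.09 and -0.04 ± 0.11 for miR-106b, miR-93 and miR-25 (limma adjusted p = 0.984, 0.991 and 0.935), against 0% of 171 called. From day 1 to day 28 they were -0.23 ± 0.12, 0.01 ± 0.09 and -0.13 ± 0.11 (adjusted p = 0.231, 0.948 and 0.471). Control day 1 held 1 array of slide 1, replicate 1, and control day 28 held none. Leaving out each array in turn gave -0.31 to -0.11 for miR-106b and -0.21 to -0.027 for miR-25. The values of -0.11 and -0.027 came without replicate 1. In the comparison of control day 28 with day 1, 11 of 171 miRNAs, 6.43%, passed the threshold, 10 of them lower on day 28. Without control day 1 replicate 1 the count was 0. The median over all 171 was -0.17. All 6 control mice of day 28 lay below the day 1 median for miR-106b. Background correction with normexp and no scaling between arrays gave calls for all 3 members in this comparison, with opposite signs: -0.43, -0.55 and -0.48 under normexp and 0.96, 1.20 and 1.06 without scaling. Most of the 171 tested miRNAs also passed under each of these settings, 142 of them without scaling. The median of all 171 was -0.63 and 1.02 under these settings. The arrays of control day 1 were dimmer, with a median 75th percentile of 365 against 985 in control day 28. Whether this bears on the comparison was not tested.

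Because the members come from 1 transcript, differences between members on the same array were compared next; these cancel the scaling of an array, although each probe keeps its own offset. The level of miR-25 minus that of miR-106b was -0.77 ± 0.08 (SD, n = 6) in control and -0.68 ± 0.03 (n = 6) in exposed mice of day 1, -0.79 ± 0.08 (n = 6) and -0.69 ± 0.07 (n = 4) on day 3, and -0.68 ± 0.07 (n = 6) and -0.91 ± 0.19 (n = 5) on day 28. Exposed minus control was thus 0.10 on days 1 and 3 and -0.23 on day 28. The day 28 value was -0.07 under normexp and -0.03 with the second brightest probe of each member, and the day 1 value was -0.01 under normexp. Two-sided exact permutation tests gave p = 0.0195, 0.0762 and 0.0152, which after adjustment over all 9 differences tested became 0.0877, 0.205 and 0.0877. None passed, and whether the 3 days differ was not tested. Without slide 1 the differences of days 1 and 3 were 0.09 and 0.05 (exact permutation adjusted p = 0.114 and 0.230).

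The 5 exposed mice of day 28 had miR-25 minus miR-106b of -0.87, -0.83, -1.08, -1.11 and -0.66, against a range of -0.75 to -0.54 in controls. The groups overlapped through the last of these mice, exposed day 28 replicate 30. Leaving out each of the 11 mice in turn gave differences of -0.30 to -0.18 and exact permutation adjusted p of 0.0429 to 0.179. The lowest of these, without replicate 30, was the sole one to pass. The difference correlated with log2 array brightness at r = 0.386 over 33 arrays and 0.298 over the 29 without slide 1. For miR-93 minus miR-106b, exposed minus control gave 0.17 on day 1, 0.17 on day 3 and -0.11 on day 28. Exact permutation p were 0.288, 0.457 and 0.227, and adjusted p 0.432, 0.588 and 0.409. Leaving out 1 mouse moved the day 1 value between 0.058, without control day 1 replicate 1, and 0.24, and the day 3 value between 0.049, without control day 3 replicate 2, and 0.29, without exposed day 3 replicate 4. Without all of slide 1 they were 0.13 and 0.17 (exact permutation adjusted p = 0.114 for both). For miR-25 minus miR-93 the differences were -0.07, -0.07 and -0.12, and the groups overlapped on every day. Exact permutation p were 0.576, 0.638 and 0.0909, and adjusted p 0.638, 0.638 and 0.205. Without slide 1 those of days 1 and 3 were -0.05 and -0.12 (exact permutation adjusted p = 0.452 and 0.114). With all mice of a day, the smallest p these tests allow is 0.00216 on days 1 and 28 and 0.00476 on day 3. Without slide 1, days 1 and 3 hold fewer mice, so the smallest p possible there is larger.

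**Figure D3:**
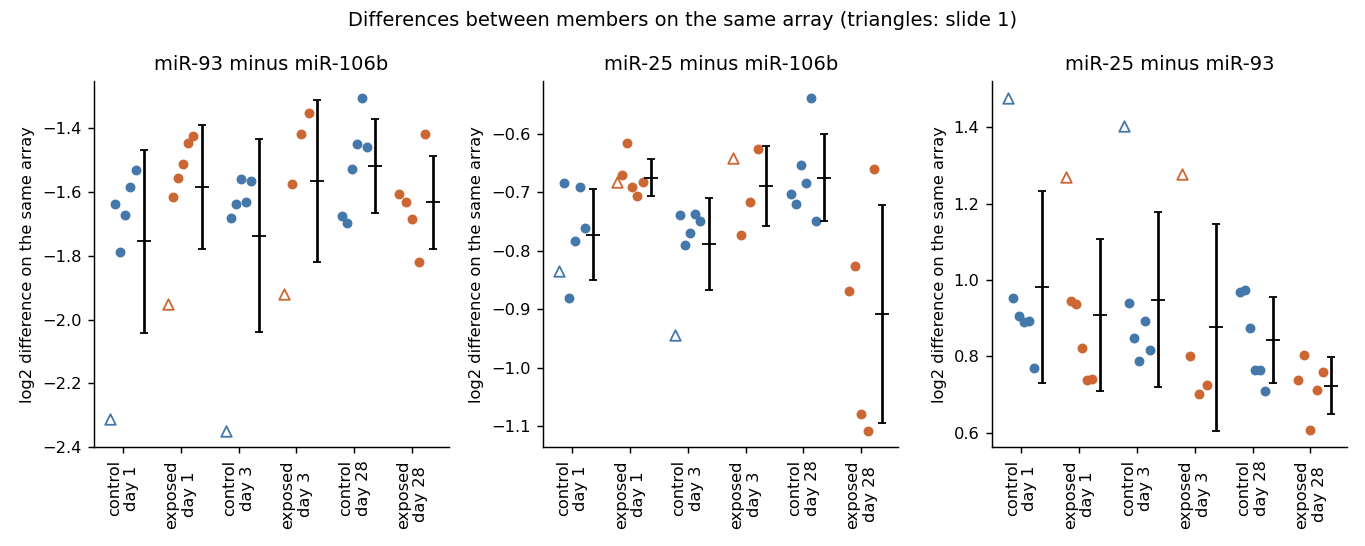
Log2 difference between 2 members on the same array (vertical axes) in the 6 groups; points are mice, triangles mice on slide 1, bars the mean and SD. For miR-25 minus miR-106b, 4 of 5 mice of exposed day 28 lie below all controls of that day, and for both differences with miR-93 the triangles stand apart.

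On slide 1 the members stood apart from each other. miR-106b lay between 7.56 and 8.04 on its 4 arrays and between 7.07 and 7.67 on the other 29, and miR-25 between 6.92 and 7.21 against 6.09 to 6.98. miR-93 did not share this, at 5.54 to 5.73 against 5.38 to 6.07. miR-25 minus miR-93 was accordingly 1.27 to 1.48 on slide 1 and 0.61 to 0.97 elsewhere, with no overlap, in control and exposed mice alike.

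Across all 33 arrays, miR-106b and miR-25, whose seeds differ, were the members that varied together most closely. Their correlation was r = 0.844 over the 33 arrays and 0.692 over the 29 outside slide 1, as a description of arrays that share scaling and groups. miR-106b and miR-93, which share a seed, correlated at 0.210 over all arrays and at 0.623 without slide 1. miR-93 and miR-25 correlated at 0.446 and 0.816, and so were the closest members without slide 1. The median over the 4371 pairs of the 94 miRNAs above background on every array was 0.122. No separate median is given for the 29 arrays without slide 1.

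**Figure D4:**
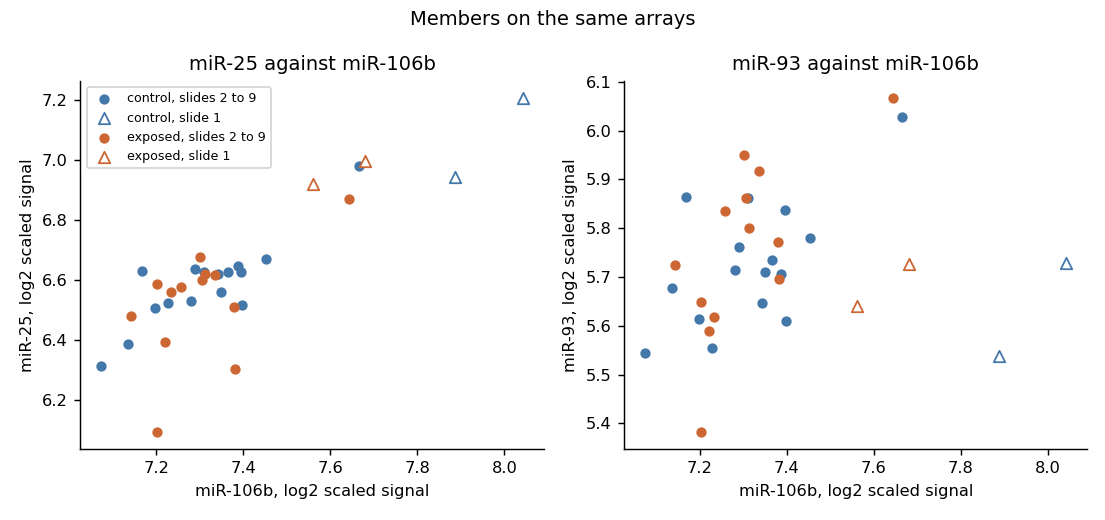
Log2 scaled signal of miR-25 (left) and miR-93 (right) against that of miR-106b, 1 point per mouse, blue for control, orange for exposed and open triangles for slide 1. The triangles continue the trend for miR-25, r = 0.844 over all arrays, and leave it for miR-93, where r is 0.210 with them and 0.623 without.

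Among the 91 other miRNAs above background on every array, those whose pattern over the 33 arrays was most like a member differed between the members. For miR-106b they were miR-15a (r = 0.926), miR-15b (0.913) and miR-107 (0.890). For miR-25 they were miR-199b* (0.886), miR-497 (0.880) and miR-100 (0.865). For miR-93 the values were lower, with miR-144 at 0.551, miR-27b at 0.493 and miR-451 at 0.465. Without slide 1, miR-15a and miR-15b remained the first 2 for miR-106b, at 0.780 and 0.742, and miR-497 and miR-199b* for miR-25, at 0.794 and 0.774. For miR-93 the first 3 became miR-125b-5p (0.650), miR-100 (0.639) and its seed relative miR-20a (0.603).

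Of the other products of the cluster, the star arms miR-106b* and miR-93* were above background on 0 of 33 arrays. The other arm of miR-25 was not found among the miRNA names of the array, so its signal is not known. Of the miR-17 seed relatives, miR-20a was above background on 33 arrays, miR-20b on 32 and miR-17 on 0. Of the miR-25 seed relatives, miR-92a was so on 33, miR-32 on 3, and miR-92b, miR-363 and miR-367 on 0. miR-106a was likewise not found among the miRNA names of the array.

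The measurable relatives did not pass the test after carbon black either: 0 of 3 did on any day, against the 0% of all 171. miR-20a had changes of 0.14, 0.10 and -0.01 on days 1, 3 and 28, miR-20b of 0.12, -0.02 and -0.10, and miR-92a of -0.004, 0.06 and 0.04. miR-92a, the closest relative of miR-25, thus had a change of 0.04 ± 0.15 (SE) on day 28, where miR-25 had -0.21 ± 0.12, and the difference between them was not tested. Of miR-18a, miR-18b, miR-19a and miR-19b, which belong to the paralogous clusters, 3 were tested and 0 passed on any day of exposure.

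Each member had 2 probes of 10 spots each on every array. For miR-106b both probes were above background on 33 arrays and correlated at r = 0.837, and the second, dimmer one had changes of 0.04, 0.14 and 0.06 on days 1, 3 and 28, which on day 1 is the opposite sign to the first. For miR-93 the second probe was above background on 0 arrays. For miR-25 the second probe was so on 26 of 33, correlated at -0.486 with the first, and had changes of 0.38, 0.34 and 0.03, so that the negative value of miR-25 on day 28 rests on the brighter probe. The median coefficient of variation between spots of the brighter probe on an array was 5.25% for miR-106b, 9.72% for miR-93 and 7.51% for miR-25, and no spot was saturated.

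The spread between mice of a group was below the median for all 3 members. The SD within groups was 0.139 for miR-93, 0.196 for miR-25 and 0.208 for miR-106b. From the smallest, these ranked 7, 32 and 41 of the 171 tested miRNAs. Among the 94 above background on every array they ranked 6, 25 and 30. The median SD was 0.281 over the 171 miRNAs and 0.236 over those 94, so miR-25 and miR-106b lay only somewhat below the latter. The exposure changes, between -0.21 and 0.19, had 95% intervals whose outermost bounds were -0.46 and 0.39.

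**Figure D5:**
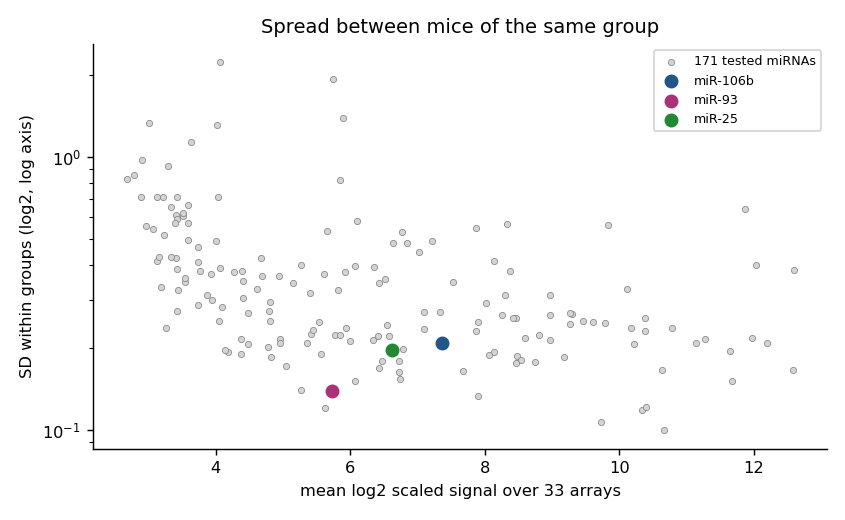
SD of log2 signal within groups (vertical, log axis) against the mean log2 scaled signal over 33 arrays (horizontal) for the 171 tested miRNAs, grey, with the 3 members coloured. miR-93 lies at 0.139, miR-25 at 0.196 and miR-106b at 0.208. The median is 0.281 over the 171 miRNAs and 0.236 over the 94 above background on every array.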

How the data were processed

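Total RNA enriched with small RNA from mouse lung was labelled with Cy3 and hybridised to 1-colour Agilent miRNA arrays, as the labels' protocols state. The deposited scanner files, made with Feature Extraction 10.7.3.1, hold a linear intensity per spot after background subtraction, per the file headers. The authors also deposited a table with 1 log2 value per miRNA and array. Against log2 median signals of the scanner files its columns had r of 0.985 to 0.993, which gives scale and direction. Its column medians, 5.41 to 5.43, leave its centring and scaling unknown, and it served as an alternative.

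Control spots and those with outlier marks (2.30%) were dropped, and processed signals were averaged per probe. A factor per array equalised the 75th percentile, taken over 156 probes that every array detected. Values were floored at 1 and log2 transformed, and the probe with the highest mean stood for its miRNA. Detection on an array needed most spots of 1 probe well above background, and testing needed detection on at least 4 arrays of 1 group. Group means over all 33 arrays were fitted in limma 3.58.1 (R 4.3.3) (lmFit, then eBayes with a trend on intensity). P-values were two-sided and adjusted by Benjamini-Hochberg within a comparison, with a threshold of 0.05. Differences within arrays had exact permutation tests over all splits of the arrays of a day. Their p-values were adjusted over 9 by Benjamini-Hochberg (scipy 1.17.1). The fit was tested on simulated data.

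The series design names individual mice, so each array of a group counted as an animal, and their number limits the precision. The miRNAs named were the members, their star arms, seed relatives, markers of cell types and, for each member, the 3 miRNAs most correlated with it. The members and lists were chosen with earlier results of these data known. The endothelial, lymphoid, epithelial, smooth muscle, fibroblast and liver lists had 0 members called on any day of exposure. Alternatives were normexp (offset 50), the total gene signal, other probe rules, quantile normalization, percentiles over all probes, no scaling, the deposited table, a floor of 10, other detection filters, slide or scan day as a block, same-slide pairs, array weights, and leaving out slide 1 or each array. The scanner files hold no mean signal, so normexp used the median signal. Sequences and the position of Mcm7 came from RefSeq tables on GRCm38.p6.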

Additional observations from a re-analysis of the deposited data

Results flagged for a closer look

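Of the 18 sets of mice formed by the 3 members and 6 groups, 4 held a mouse whose distance to the next mouse was large for the range of its group by Dixon's test; chance gives this in about 1 of 20 sets. All 4 values were the highest of their group and came from the same 2 arrays, both on slide 1. Exposed day 1 replicate 3 stood at 7.68 for miR-106b, with the next mouse at 7.31, and at 7.00 for miR-25, with the next at 6.62. Control day 3 replicate 2 stood at 7.89 for miR-106b, with the next at 7.40, and at 6.94 for miR-25, with the next at 6.65. For miR-93 no mouse was marked in this way, including those of slide 1. The changes without slide 1 stand in the report.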

How the results depend on the processing

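No member passed the threshold against vehicle on any day under any alternative tried, and the calls that appeared concerned control day 28 against day 1 and differences between members. The positive change of miR-25 on day 3 kept its sign under all 17 alternatives other than leaving out single arrays. Some of these could not turn it, so the count overstates how far the sign was tried. The other detection filters change which miRNAs are tested, not the change of miR-25. The raised floor and the mean over probes above background left the levels of miR-25 as they were. The negative change of miR-25 on day 28 turned with normexp and with the dimmer probe, and that of miR-93 with normexp; the positive change of miR-93 on day 3 turned with its second probe, which was not above background. Set against the median of all tested miRNAs in the same scaling, miR-25 on day 28 was -0.18 and miR-93 on day 3 was 0.22. Percentile scaling over all probes and no scaling give these same values by construction. The other 4 scalings gave -0.21 to -0.10 and 0.04 to 0.22. Few arrays per group, the dimness of second probes and the wide range of array brightness limit what these data resolve. Replicate numbers pair no mice, since each names 1 array of the whole series; arrays of the same slide were compared as blocks and as pairs. The cause of the changes below was not tested.

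With the second brightest probe, exposure changes were 0.043 (miR-106b, day 1), -0.16 (miR-93, day 3), and 0.38 and 0.032 (miR-25, days 1 and 28). In controls, day 3 against day 1 gave 0.059, 0.81 and 0.17 for miR-106b, miR-93 and miR-25, and day 28 gave 0.38 for miR-25. The difference miR-93 minus miR-106b was -0.30 on day 3, and miR-25 minus miR-93 was 0.080, 0.50 and 0.57 on days 1, 3 and 28. With the mean over probes above background, miR-106b in control day 3 against day 1 was 0.016.

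With the percentile over all probes, miR-106b had exposure changes of 0.047, -0.026 and -0.23 on days 1, 3 and 28, and miR-25 of 0.14 on day 1. In controls, day 3 gave 0.25, 0.27 and 0.24 for miR-106b, miR-93 and miR-25, and day 28 gave 0.21 and 0.30 for miR-106b and miR-25. With no scaling between arrays, exposure changes were 0.52, -0.058 and -0.60 for miR-106b and 0.62 for miR-25 on day 1. In controls, day 3 then gave 0.64, 0.66 and 0.63, and day 28 gave 0.96, 1.20 and 1.06 for the 3 members. All 3 passed on day 28, as did 142 of the 171 tested miRNAs.

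With normexp, exposure changes were -0.34 and 0.22 for miR-93 on days 1 and 28 and 0.066 for miR-25 on day 28. Control day 28 gave -0.43, -0.55 and -0.48 for the 3 members, all of which passed, as did most tested miRNAs. Within arrays, miR-93 minus miR-106b was -0.075 and 0.088 on days 1 and 28, miR-25 minus miR-106b was -0.013 on day 1, and miR-25 minus miR-93 was 0.062, 0.000546 and -0.15 on days 1, 3 and 28, of which the last passed (exact permutation adjusted p = 0.0390). With quantile normalization, miR-93 minus miR-106b on day 1 was 0.22 and passed (exact permutation adjusted p = 0.0195), miR-25 minus miR-93 on day 3 was 0.080, and controls gave 0.044 for miR-93 on day 3 and 0.014 for miR-25 on day 28.

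With the total gene signal, day 1 gave -0.0082 for miR-93 and 0.025 for miR-25, control day 3 gave 0.020 for miR-25, and miR-25 minus miR-93 was 0.033 on day 1. The authors' deposited table gave 0.064 for miR-93 in control day 3, 0.039 for miR-25 in control day 28, and 0.019 for miR-25 minus miR-93 on day 3. With slide as a fixed block, miR-106b on day 3 was -0.027 and miR-93 in control days 3 and 28 was 0.015 and -0.026; as a random block these were -0.012, 0.00505 and -0.012. With scan day as a block, miR-106b was -0.029 and -0.0014 on days 3 and 28 and miR-93 -0.018 in control day 28. Array weights gave -0.0024 for miR-106b on day 28 and 0.024 for miR-93 in control day 3. Without slide 1, control day 3 gave 0.025 for miR-93 and 0.00107 for miR-25.

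Counts of miRNAs called also moved. For exposure on day 1, where the count was 0, it was 3 with the total gene signal, 2 with the second probe, 4 with quantile normalization, 3 with the percentile over all probes, 6 with no scaling, 1 over miRNAs above background on all arrays, 3 with no filter, and 2 each with slide as a random block, array weights and without slide 1. For day 3 it was 2 with array weights and 1 without slide 1. For day 28 it was 1 each with normexp, quantile normalization, a floor of 10, no filter and without slide 1, and 5 with array weights. Control day 3 had 3 with array weights. Control day 28, at 11, had 126 with normexp, 142 with no scaling, 18 with slide as a random block, 7 with array weights, 5 each with the percentile over all probes and the deposited table, 4 without slide 1, 2 each with the total gene signal and the second probe, and 0 with quantile normalization. The exposed days had 2 with the second probe, 5 with the random block, 10 with array weights and 4 without slide 1, and the difference between days had 1 with no filter.

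Leaving out each array in turn, exposure changes of miR-106b ranged from -0.22 to -0.026 on day 1, -0.046 to 0.10 on day 3 and -0.0097 to 0.050 on day 28. Those of miR-93 ranged from -0.0041 to 0.093, 0.13 to 0.27 and -0.13 to -0.032, and those of miR-25 from -0.12 to 0.059, 0.065 to 0.17 and -0.25 to -0.15. Control day 3 ranged from -0.12 to 0.087, -0.045 to 0.051 and -0.12 to 0.059 for miR-106b, miR-93 and miR-25, and control day 28 gave -0.025 to 0.072 for miR-93. Within arrays, miR-93 minus miR-106b ranged from 0.058 to 0.24, 0.049 to 0.29 and -0.17 to -0.067 on days 1, 3 and 28, miR-25 minus miR-106b on day 28 ranged from -0.30, without exposed day 28 replicate 30, to -0.18, and miR-25 minus miR-93 from -0.14 to 0.026 on day 1 and -0.21 to 0.019 on day 3. Counts ranged from 0 to 2 for exposure on day 1, 0 to 4 on day 28, 0 to 21 for control day 28, 0 to 3 for the exposed days and 0 to 1 for the difference between days. The count of control day 28 was 0 without control day 1 replicate 1 and 21 without control day 1 replicate 17. It was 2 without control day 1 replicate 13 or control day 28 replicate 18 or 28, 3 without control day 28 replicate 22 or 32, and 5 without control day 1 replicate 27 or control day 28 replicate 6. Without exposed day 28 replicate 12 there were 4 calls on day 28.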
